A study of Mus musculus with 6 samples.

Results

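The genes described here encode the LINC complex, which spans the nuclear envelope, and the torsin ATPases with their cofactors. They are Sun1 and Sun2, Syne1, Syne2 and Syne3, Tor1a and Tor1b, and Tor1aip1 and Tor1aip2. They were found by symbol in the platform annotation, which gave 22 probe sets with 1 of these 9 symbols alone, of 45101 probe sets on the array, where 18193 genes had a symbol of their own. Both SUN genes stood under their current symbols, so no older name had to be used.

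Expression had been measured on 6 Affymetrix arrays of NIH3T3 cells, an immortalised line of mouse fibroblasts. Every sample was of clone M, a line with lacO, the operator DNA of the lac repressor, inserted several times in its genome. In 3 arrays the insertion was tethered at the nuclear periphery, and in 3 it was untethered and lay centrally in the nucleus. Both groups were grown in medium with 10% serum to about 80% confluency, and the labels do not name the tethering protein or describe replicates as independent cultures, so p-values measure the spread between these samples, which may be technical. A single clone also limits how far any value can stand for other cells.

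The LINC complex links the nucleus to the cytoskeleton. SUN proteins cross the inner nuclear membrane and bind, in the space between the membranes, the KASH tails of nesprins, which cross the outer membrane and reach actin, intermediate filaments or microtubule motors. Torsins are AAA+ ATPases in the lumen of the endoplasmic reticulum and the perinuclear space, and they need a membrane-bound cofactor, LAP1 or LULL1, to hydrolyse ATP. In fibroblasts these proteins are known for moving and anchoring the nucleus and for the even spacing of its membranes.

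The deposited values are linear intensities, 1 per probe set and array, and median intensities ran from 482 to 485 in tethered and from 482 to 491 in untethered arrays. Intensities under 16 were set to 16, log2 was taken, and probe sets with a mean log2 intensity above the median of all, 8.93, were tested with limma, which left 22518. The arrays numbered 1, 1 of each group, stood apart from the other 4. On the first principal component, with 62.1% of the variance, they lay at -38.0 (tethered) and -30.3 (untethered), while tethered replicates 2 and 3 lay at 13.7 and 26.6 and untethered replicates 2 and 3 at 5.49 and 22.5. All 10 fibroblast markers, among them Col1a1, Vim and Pdgfrb, had a probe set above the filter. Each marker gene was read from its brightest tested probe set or, where none was tested, its brightest. Summed intensities of the 10 fibroblast markers ran from 78698 to 104309 in tethered and from 93904 to 103299 in untethered arrays. All 10 had log2 fold changes below 0, from -0.73 (Pdgfrb) to -0.02 (Col1a2), beside 55.9% of all tested probe sets below 0. With the tested probe sets of each gene averaged, all 10 were again below 0. Some genes moved, with Fn1 at -0.57 against -0.15 and Pdgfra at -0.03 against -0.29. Of the markers of other cells, 1 of 5 epithelial (Epcam), 2 of 4 endothelial (Pecam1, Kdr), 3 of 5 leukocyte (Csf1r, Adgre1, Cd14), 3 of 5 muscle (Myog, Des, Acta1), 1 of 3 adipocyte (Fabp4) and 3 of 5 neural genes (Syp, Gfap, Rbfox3) also lay above the filter. Cdh1, Ptprc, Myod1, Adipoq and Snap25 lay below it. Summed intensities of those lists ran from 3789 to 3973 in tethered and from 3565 to 3983 in untethered arrays for 5 epithelial genes, from 1701 to 1799 against 1599 to 1679.6 for 4 endothelial genes, and from 2664 to 3098 against 2953 to 3490.4 for 5 leukocyte genes. They ran from 3279 to 3484 against 3157 to 3254.5 for 5 muscle genes, from 912 to 1049 against 957 to 1039.6 for the 3 adipocyte genes found of 4, and from 3189 to 3343 against 3233 to 3406 for 5 neural genes. The tested markers with an unadjusted p from limma under 0.05 (2.38% of all tested probe sets) were Pdgfrb, Pecam1 and Adgre1. Their log2 fold changes were -0.73 (SE 0.24), 0.18 (SE 0.068) and -0.25 (SE 0.092), each with an adjusted p of 0.999. The part of the marker genes in any difference below was not tested.

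Of the 22 probe sets, 17 passed the filter, at least 1 for each of the 9 genes, and 5 did not: 1 of Sun2, 1 of Syne1 and 3 of Syne2. In tethered against untethered cells 0 of the 17 were called by limma at an adjusted p under 0.05, beside 0% of all tested probe sets. At an unadjusted p under 0.05 there were 0 of 17 (2.38% of all tested), and 0 reached 1.5-fold with an unadjusted p under 0.01 (0.0266% of all). Their log2 fold changes ran from -0.29 to 0.21 with a median of 0.006, where all tested probe sets had a median of -0.016 and a middle range of -0.10 to 0.05. Below 0 lay 8 of 17, or 47.1%, against 55.9% of all tested probe sets. After quantile normalization 5 of 17 (29.4%) lay below 0, against 46.5% of all, and with the arrays numbered 1 left out (an alternative added after seeing the data) 11 of 17 (64.7%) did, against 57.5%. The 95% interval of the difference stayed inside 1.5-fold either way for 13 of the 17, beside 80.3% of all tested probe sets. It stayed inside 2-fold for all 17. With each array left out in turn, 7 of the 17 kept their sign throughout. In such bulk RNA, fewer cells with a transcript and less transcript per cell cannot be told apart. The 4 intervals that reached past 1.5-fold were 1 of Sun1 and 3 of Tor1aip2.

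**Figure D1:**
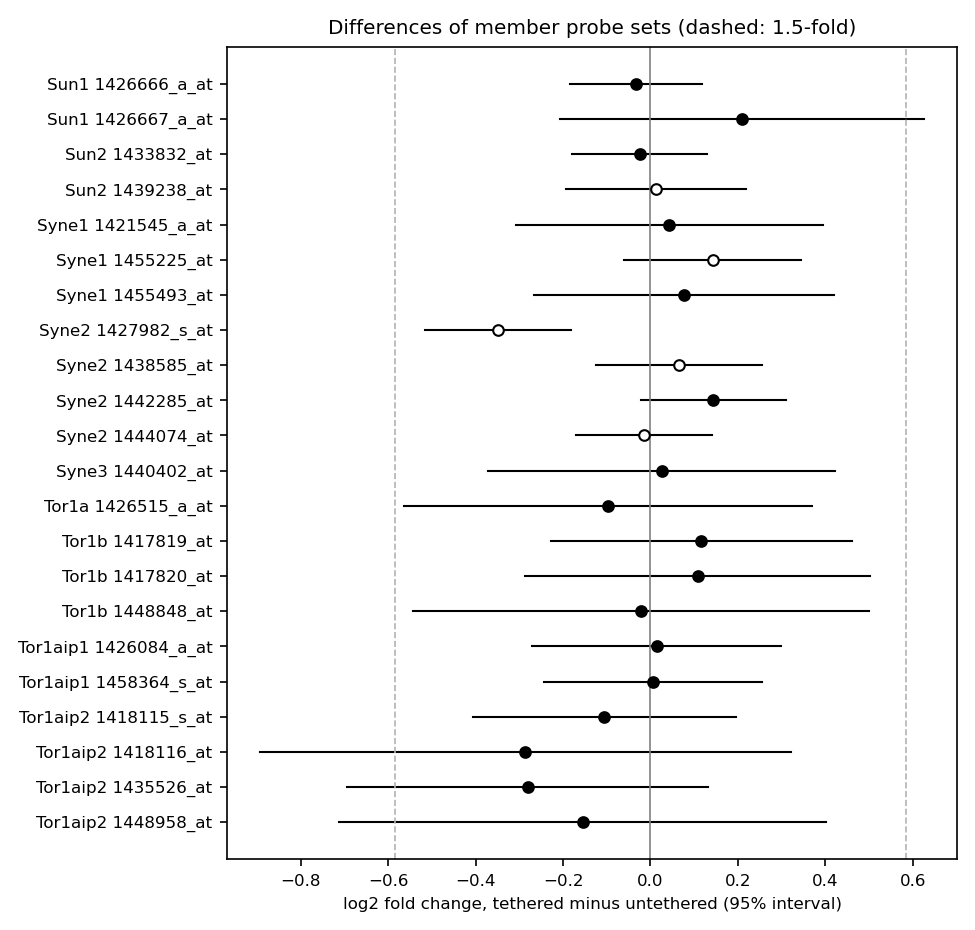
Log2 fold change of each probe set, tethered minus untethered, with its 95% interval from limma (3 arrays a group). Filled points passed the signal filter and open points did not and come from the fit without the filter. Dashed lines mark 1.5-fold, and the interval that lies wholly on 1 side of 0 belongs to Syne2 1427982_s_at.

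Sun1 and Sun2 encode the SUN proteins of somatic cells. Their brighter probe sets were almost level across the 6 arrays. Sun1 1426666_a_at gave intensities of 2220.2, 2207 and 2317 in tethered replicates 1, 2 and 3, against 2348, 2221 and 2331 in untethered replicates 1, 2 and 3. The groups overlapped, and the log2 fold change was -0.03 (SE 0.062, 95% interval -0.18 to 0.12). Sun2 1433832_at gave 2959.6, 3113 and 3171 in tethered replicates, against 3039.8, 3155 and 3208 in untethered replicates. Its groups overlapped too, at -0.02 (SE 0.063, interval -0.18 to 0.13), and both arrays numbered 1 lay below the other 4. After quantile normalization both values turned to above 0, at 0.002 for Sun1 and 0.030 for Sun2. The standard deviation of log2 intensity over the 6 arrays was 0.041 for Sun1 and 0.043 for Sun2, at percentiles 2.75 and 3.48 of all tested probe sets, so few probe sets varied less. Of the 36 pairs among the brightest probe sets of the 9 genes, the SUN pair was nearest, with a root mean square difference of 0.046 between their mean-centred log2 profiles. Each profile alone deviated from its mean by 0.037 (Sun1) and 0.040 (Sun2), so the difference between them was no smaller than their own deviations.

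The brighter probe sets of both genes were among the least variable on these arrays, while the other probe sets, described below, varied more. Shown here are the 250 bases before the first RefSeq start of each gene. They come from RefSeq on build GRCm38.p6, at chr5:139200387-139200636 (plus strand) for Sun1 and chr15:79742537-79742786 (minus strand) for Sun2. They are written 5′ to 3′ along the gene, and capitals mark each match, on either strand and with overlaps counted, to GGGCGG (the GC box) or CCAAT (the CCAAT box).
Sun1: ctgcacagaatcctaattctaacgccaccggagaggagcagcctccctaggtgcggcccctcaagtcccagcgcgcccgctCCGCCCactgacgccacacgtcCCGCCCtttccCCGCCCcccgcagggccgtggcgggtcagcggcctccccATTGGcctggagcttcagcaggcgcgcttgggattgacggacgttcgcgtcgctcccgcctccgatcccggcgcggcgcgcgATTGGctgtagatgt
Sun2: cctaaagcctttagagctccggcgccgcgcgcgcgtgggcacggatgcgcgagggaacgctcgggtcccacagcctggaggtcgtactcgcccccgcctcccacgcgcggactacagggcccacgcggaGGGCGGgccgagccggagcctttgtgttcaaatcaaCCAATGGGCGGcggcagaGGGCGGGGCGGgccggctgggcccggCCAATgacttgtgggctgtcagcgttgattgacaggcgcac
The Sun1 window held 3 GC boxes, 2 CCAAT boxes and 30 CpG dinucleotides, and the Sun2 window held 4 GC boxes, 2 CCAAT boxes and 31 CpG. The GC box was present in 32.7% of 32851 RefSeq windows of this length, the CCAAT box in 33.8% and both in 11.0%, and the median window had 6 CpG. Neither window held TATAAA (12.4% of all windows) or TGACGTCA (1.55%). RefSeq windows were at hand for 8 of the 9 genes, 16 in all, and these were the 2 windows with both boxes. High CpG counts were not particular to them, as the Syne2 window held 26 CpG and 3 GC boxes. The window before the second RefSeq start of Sun1 held 1 CpG, 0 GC boxes and 1 TATAAA. Any link between such windows and the spread of the probe sets was not tested. A match describes the letters and is no measured binding site.

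The other probe sets of the SUN genes were less even. Sun1 1426667_a_at, drawn from the same source sequence as the first, gave 1217, 1424 and 1534 in tethered replicates, against 1247, 959 and 1441 in untethered replicates. Untethered replicate 2 was the low array, and the groups overlapped. The log2 fold change was 0.21 (SE 0.17, interval -0.21 to 0.62), the highest of the 17, and it was 0.05 without untethered replicate 2. The dim Sun2 1439238_at lay between 377 and 411 in tethered and between 360.1 and 430.0 in untethered arrays. Standard deviations of log2 intensity over the 6 arrays were 0.25 for Sun1 1426667_a_at and 0.091 for Sun2 1439238_at. Set against all tested probe sets, these lay at percentiles 79.7 and 29.5, so only the brighter probe sets were among the least variable. Sun2 1439238_at still varied less than the median tested probe set, which had a standard deviation of 0.13.

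Nesprins are the outer-membrane side of the bridge. Syne1 encodes nesprin-1, a giant spectrin-repeat protein whose long forms bind actin. Syne1 1455493_at gave 1916, 1508 and 1456 in tethered replicates, against 1717, 1541 and 1358 in untethered replicates. Both arrays numbered 1 were above the other 4, and the groups overlapped. The log2 fold change was 0.08 (SE 0.14, interval -0.27 to 0.42), and it turned to -0.05 without tethered replicate 1 and to -0.01 without untethered replicate 3. Syne1 1421545_a_at gave 1053, 733 and 789.9 in tethered replicates, against 847, 833 and 789.6 in untethered replicates. Tethered replicate 1 was the high array, and the fold change of 0.04 (SE 0.14) stood at -0.11 without it and at -0.09 without both arrays numbered 1. The dim Syne1 1455225_at ran from 379 to 427 in tethered and from 340.0 to 389.8 in untethered arrays, at 0.14 (SE 0.084). In all 3 probe sets of Syne1 both arrays numbered 1 lay above the other 4.

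Syne2 encodes nesprin-2, the second giant actin-binding nesprin. Its 4 probe sets came from 4 source sequences and did not give 1 direction. Syne2 1442285_at, the probe set that passed the filter, gave 535, 566 and 516 in tethered replicates, against 506, 471 and 486 in untethered replicates. All tethered arrays were above all untethered ones, and this was the 1 probe set of 17 whose groups did not overlap, beside 8.16% of all tested probe sets (4.3% with the tethered arrays above, 3.85% with them below). The log2 fold change was 0.14 (SE 0.068, interval -0.02 to 0.31), with an unadjusted p from limma of 0.0792, the smallest of the 17, and an adjusted p of 0.999.

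Syne2 1427982_s_at separated the groups the other way. It gave 345, 320.5 and 345 in tethered replicates, against 416, 454 and 417 in untethered replicates. Every tethered array was below every untethered one, and the arrays numbered 1 did not stand apart. It lay below the signal filter, at a mean log2 intensity of 8.57, so its test comes from limma on all 45037 probe sets without the filter. There the log2 fold change was -0.35 (SE 0.069, interval -0.52 to -0.18), with an unadjusted p of 0.0021 and an adjusted p of 0.989. With each array left out in turn it ran from -0.37 to -0.31. Of all probe sets without the filter, 3.96% had an unadjusted p under 0.05 and 9.68% had groups that did not overlap. In Affymetrix naming the suffix _s_at marks a probe set whose probes can match transcripts of more than 1 gene, so its assignment to Syne2 is less certain than that of the other Syne2 probe sets. The same limit holds for the brightest probe sets of Tor1aip1 (1458364_s_at) and Tor1aip2 (1418115_s_at). The dim pair that remained gave no separation: Syne2 1438585_at stood at 0.07 (SE 0.078) and Syne2 1444074_at at -0.01 (SE 0.064).

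Syne3 encodes nesprin-3, which binds plectin and through it intermediate filaments. Its probe set gave 586, 753 and 827 in tethered replicates, against 599.8, 748 and 771 in untethered replicates. The arrays numbered 1 were the low ones in both groups, and the number of the array accounted for 97.3% of the sum of squares over the 6 arrays, against 0.468% for the group. The log2 fold change was 0.03 (SE 0.16, interval -0.37 to 0.42), and it turned to below 0 without tethered replicate 2, tethered replicate 3 or untethered replicate 1, with a lowest value of -0.09.

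**Figure D2:**
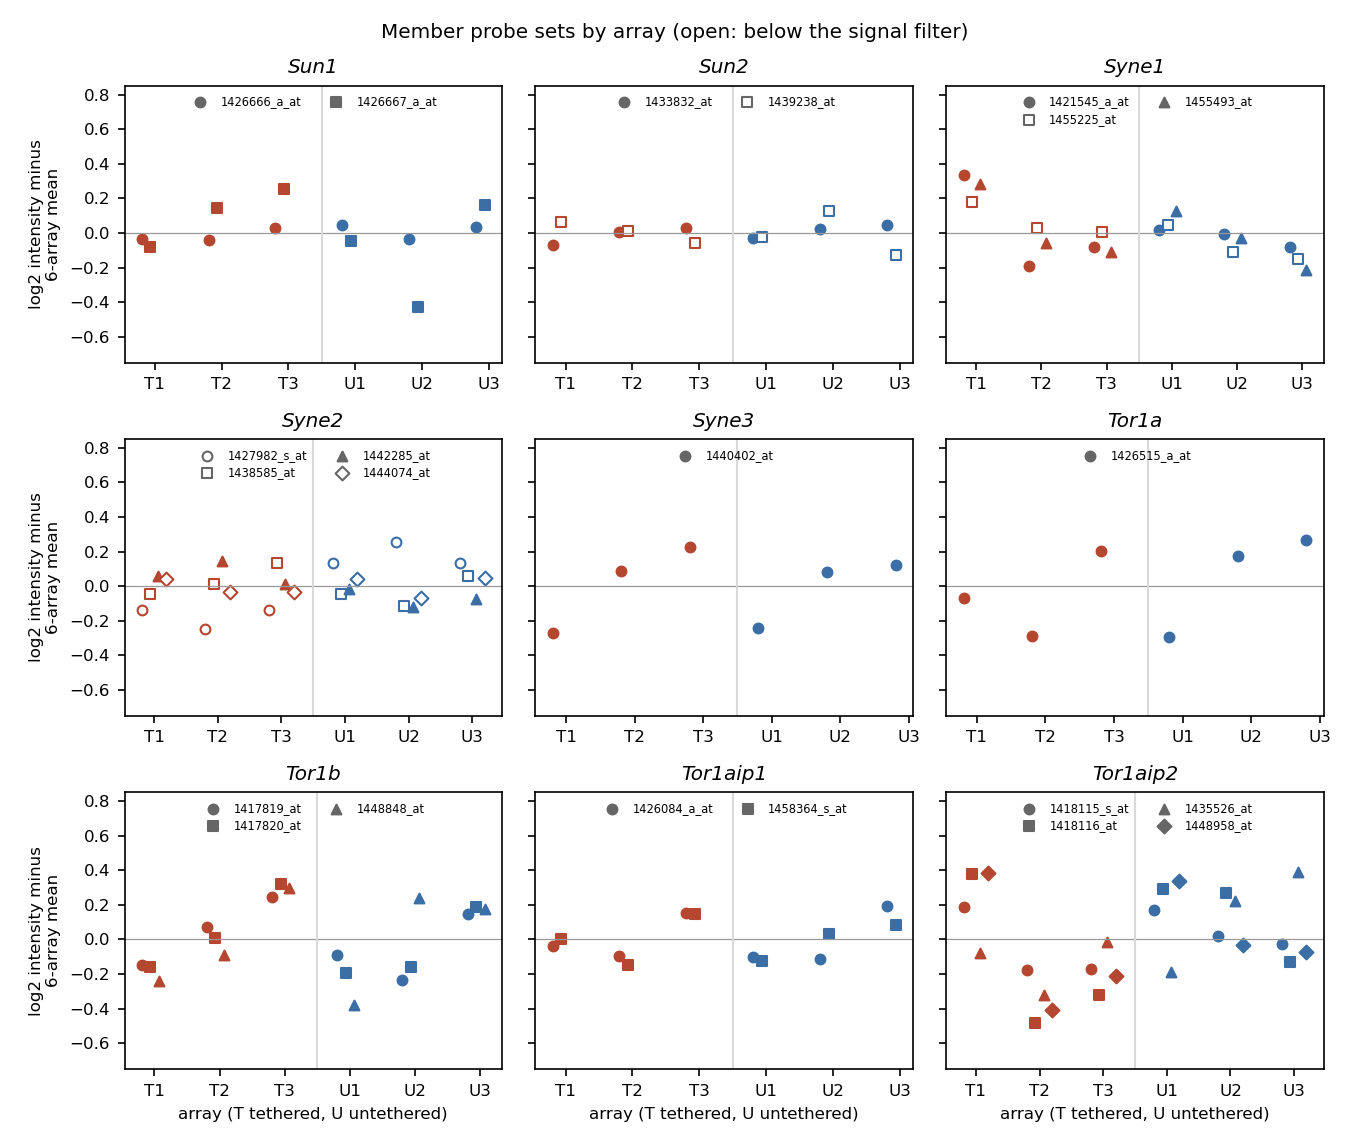
Log2 intensity of each probe set minus its own mean over 6 arrays, for tethered (T1 to T3, red) and untethered (U1 to U3, blue) arrays, where the digit is the replicate number and open symbols lie below the signal filter. Syne3 is low in T1 and U1, 3 of the 4 Tor1aip2 probe sets are high there, and Syne2 1427982_s_at is below 0 in all T arrays and above 0 in all U arrays.

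Torsins come next. Tor1a encodes torsin A, the torsin altered in an inherited human dystonia. Its probe set gave 788, 677 and 952 in tethered replicates, against 673, 929.5 and 994 in untethered replicates. The low arrays were tethered replicate 2 and untethered replicate 1, and the groups overlapped. The log2 fold change was -0.10 (SE 0.19, interval -0.56 to 0.37), it was -0.26 without both arrays numbered 1, and it turned to 0.02 without tethered replicate 2 and to 0.01 without untethered replicate 3. Of the brightest probe sets of the 9 genes, that of Tor1a had the widest spread over the 6 arrays, a standard deviation of 0.25 at percentile 80.7.

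Tor1b encodes torsin B, a close relative of torsin A, and is its neighbour on chromosome 2 in the gene table. Its 3 probe sets came from 1 source sequence. Tor1b 1417819_at gave 1587, 1848 and 2085 in tethered replicates, against 1651, 1494 and 1947 in untethered replicates, a log2 fold change of 0.12 (SE 0.14, interval -0.23 to 0.46). Tor1b 1417820_at gave 1154, 1297 and 1609.7 in tethered replicates, against 1128, 1158 and 1473 in untethered replicates, and stood at 0.11 (SE 0.16), or at -0.02 without tethered replicate 3. Replicate 3 was the high array of both groups in these 2 probe sets. Tor1b 1448848_at gave 1147, 1273 and 1665 in tethered replicates, against 1041, 1597 and 1531 in untethered replicates. It stood at -0.02 (SE 0.21), with untethered replicate 2 among the high arrays rather than the low ones, so probe sets of 1 source disagreed on that array. After quantile normalization it stood at 0.01, and with 1 array left out it ran from -0.22 to 0.09.

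The torsin cofactors differed from each other in how their probe sets ran. Tor1aip1 encodes LAP1, the cofactor of the inner nuclear membrane, which also binds lamins. Tor1aip1 1458364_s_at gave 1960.0, 1765 and 2166 in tethered replicates, against 1793, 1999 and 2066 in untethered replicates. Tor1aip1 1426084_a_at gave 736, 708 and 841 in tethered replicates, against 703, 699 and 865 in untethered replicates. The groups overlapped in both. Their log2 fold changes were 0.006 (SE 0.10, interval -0.24 to 0.26) and 0.01 (SE 0.12, interval -0.27 to 0.30), the first being the median of the 17. Both turned to below 0 without tethered replicate 3 or untethered replicate 1, with a lowest value of -0.07.

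Tor1aip2, the next gene on chromosome 1, encodes LULL1, the cofactor of the wider endoplasmic reticulum, and the gene table lists Ifrg15, an interferon-responsive gene name, among its synonyms. All of its 4 probe sets had values below 0, and none passed. Tor1aip2 1418116_at gave 2140.4, 1177 and 1320.1 in tethered replicates, against 2014, 1985 and 1508 in untethered replicates. Tethered replicates 2 and 3 were the lowest arrays and tethered replicate 1 the highest, so the groups overlapped. The log2 fold change was -0.29 (SE 0.25, interval -0.89 to 0.32), the lowest of the 17, and ran from -0.55 to -0.11 with 1 array left out.

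Tor1aip2 1448958_at, from the same source sequence, gave 1504, 869.8 and 997 in tethered replicates, against 1459.9, 1126 and 1096 in untethered replicates. Its log2 fold change was -0.16 (SE 0.23), or 0.009 without tethered replicate 2. Tor1aip2 1418115_s_at, the third of that source, gave 3489, 2708 and 2712 in tethered replicates, against 3434, 3100.3 and 2998 in untethered replicates, and stood at -0.11 (SE 0.12). In all 3 the arrays numbered 1 were the 2 highest and tethered replicates 2 and 3 were the 2 lowest arrays. Tor1aip2 1435526_at, from another source sequence, ran differently: it gave 1051, 889 and 1099 in tethered replicates, against 975, 1296 and 1457 in untethered replicates. Here untethered replicates 2 and 3 were the 2 highest arrays, and the log2 fold change was -0.28 (SE 0.17, interval -0.69 to 0.13).

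The Tor1aip2 values were larger in size without the arrays numbered 1. With that pair left out its 4 probe sets stood at -0.48 (1435526_at), -0.47 (1418116_at), -0.25 (1448958_at) and -0.17 (1418115_s_at). The first pair had unadjusted p-values from limma of 0.016 and 0.0274 and were the 2 of 17 under 0.05, beside 6.73% of all tested probe sets, with an adjusted p of 0.69. That fit held 2 arrays a group and was chosen after seeing the data. Over all 6 arrays the same pair had unadjusted p-values from limma of 0.147 and 0.293. Between the arrays numbered 1 the difference was above 0 in all 4, from 0.02 to 0.11. The RNA control for the transferrin receptor gave 5′ minus 3′ log2 signals of -2.09, -1.67 and -1.55 in tethered replicates, against -2.81, -3.07 and -1.52 in untethered replicates, and that for 18S ribosomal RNA gave 0.035, -0.29 and -0.016 in tethered replicates, against 1.05, 1.25 and 0.18 in untethered replicates. The controls gave 10 measures, as each was read by its 5′ minus 3′ signal and by its 5′ signal alone. Their smallest exact permutation p was 0.1, the smallest that 3 arrays against 3 allow, and 0.25 after Benjamini-Hochberg adjustment. In that test the 5′ minus 3′ signal gave 0.1 for 18S ribosomal RNA and 0.4 for the transferrin receptor. The part of RNA quality in these values was not tested.

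The replicate number, with 2 degrees of freedom, took a larger share of the variation than the group, with 1, in 15 of the 17 probe sets. The exceptions were Syne2 1442285_at (7.31% by number, 68.4% by group) and Tor1aip2 1435526_at (32.0% by number, 34.0% by group). The median share of the sum of squares over 6 arrays was 68.9% by number and 7.74% by group, against 54.2% and 10.4% over all tested probe sets. Both arrays numbered 1 lay outside the range of the other 4 in 9 of 17 probe sets, beside 35.5% of all tested ones. They were higher in 5 (12.2% of all tested), which were the pair of Syne1 and 3 of Tor1aip2, and lower in 4 (23.3% of all), which were Sun2, Syne3 and a pair of Tor1b. The median standard deviation over 6 arrays was 0.19 for the 17, against 0.13 for all tested probe sets.

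**Figure D3:**
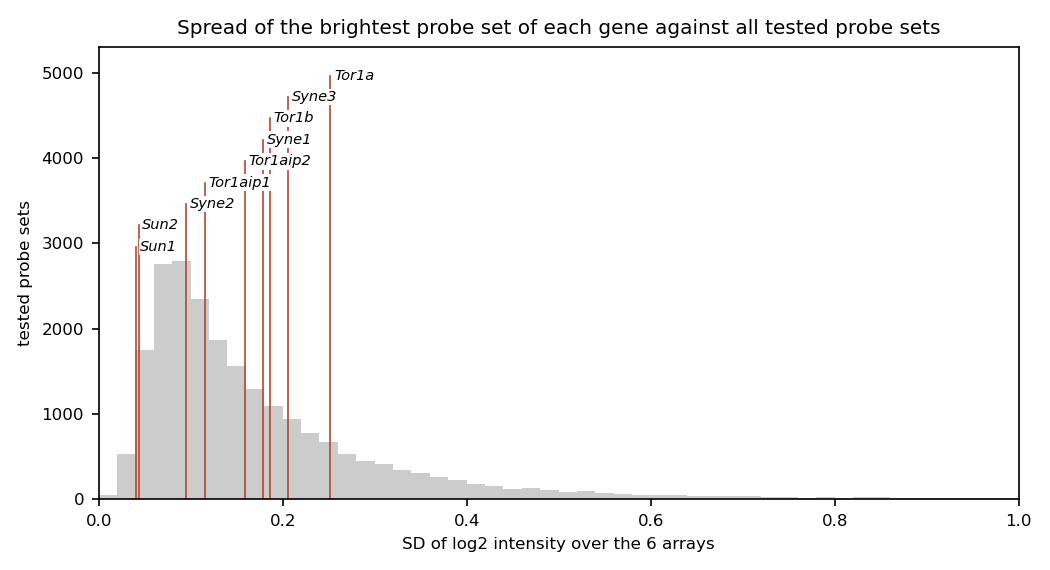
Histogram of the standard deviation of log2 intensity over the 6 arrays for 22518 tested probe sets (grey; 78 above 1 are not drawn). Red lines mark the brightest tested probe set of each of the 9 genes, from Sun1 at 0.041 to Tor1a at 0.25.

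For each gene the nearest profile outside the 9 genes was found by the root mean square difference between mean-centred log2 values over 6 arrays. It was Pdik1l for Sun1, Akr1a1 for Sun2 and Aak1 for Syne2, with differences of 0.0062, 0.0088 and 0.0088. It was Rundc3a for Syne1 (0.034), Pnn for Syne3 (0.014), Mmachc for Tor1a (0.023), Akt2 for Tor1b (0.020), Nsmce3 for Tor1aip1 (0.021) and Dclk1 for Tor1aip2 (0.023). All profiles share the same 6 arrays, and a search over all tested probe sets finds a near one for almost any gene.

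Related and partner genes were read from 4 lists, with the brightest probe set for each gene, and limma called 0 genes in either direction in any of them. At an unadjusted p under 0.05 there was 1 of 41 tested list genes, Dync1i2, or 2.44%, beside 2.38% of all tested probe sets. The groups did not overlap for 6 of the 41 (14.6%, beside 8.16% of all tested probe sets), namely Tor3a, Dync1i2, Dctn1, Lpin2, Vps4b and Brox. Of 9 other SUN, KASH and torsin family genes, 5 were tested, with 1 value below 0 and a median log2 fold change of 0.01. Tor3a, another torsin, stood at 0.11 (SE 0.066), Tor4a at 0.10 (SE 0.082) and Spag4, a SUN protein of the male germ line, at -0.04 (SE 0.066). The mean of the 3 tested probe sets of Tor3a was 0.035. Sun3 and Sun5, known from the testis, and Irag2 lay below the filter, and Kash5 was named by 0 probe sets. Of 12 nuclear envelope partners, all tested, 8 lay below 0 with a median of -0.03, and the smallest p belonged to Lemd3 (-0.21, SE 0.11), an inner membrane protein, and to the B-type lamin genes Lmnb1 (0.14, SE 0.13) and Lmnb2 (0.15, SE 0.16).

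Of 16 cytoskeletal and motor partners, 14 were tested and 11 lay below 0, with a median of -0.09. The median was -0.03 with the probe sets of each gene averaged. The 3 genes with the smallest p follow, and none passed. Dync1i2, a dynein intermediate chain, averaged a log2 intensity of 11.42 ± 0.061 in tethered and 11.69 ± 0.16 in untethered arrays (SD, n = 3 each). Its log2 fold change was -0.27 (SE 0.098), with an unadjusted p from limma of 0.0307 and an adjusted p of 0.999. Dync1h1, the dynein heavy chain, stood at -0.32 (SE 0.19) and Dctn1, the large subunit of dynactin, at -0.10 (SE 0.059). Outside these 3, the dynein regulators Nde1 and Ndel1 stood at 0.09 (SE 0.21), the highest value of the list, and at -0.18 (SE 0.13). With 1 array left out Dync1i2 ran from -0.36 to -0.21, Dync1h1 from -0.49 to -0.21 and Dctn1 from -0.11 to -0.08.

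Of 11 genes that reshape or reseal the nuclear envelope membrane, 10 were tested and 8 lay below 0, with a median of -0.11. Vps4b, an ATPase of the ESCRT machinery, stood at -0.29 (SE 0.13) and Chmp2a, an ESCRT-III subunit, at -0.22 (SE 0.14). Brox, a Bro1-domain protein that joins ESCRT to the nuclear envelope, stood at 0.14 (SE 0.069) with its brightest probe set. The mean of its 2 tested probe sets was -0.03, so they did not give 1 direction. None passed, with adjusted p-values from limma of 0.999.

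**Figure D4:**
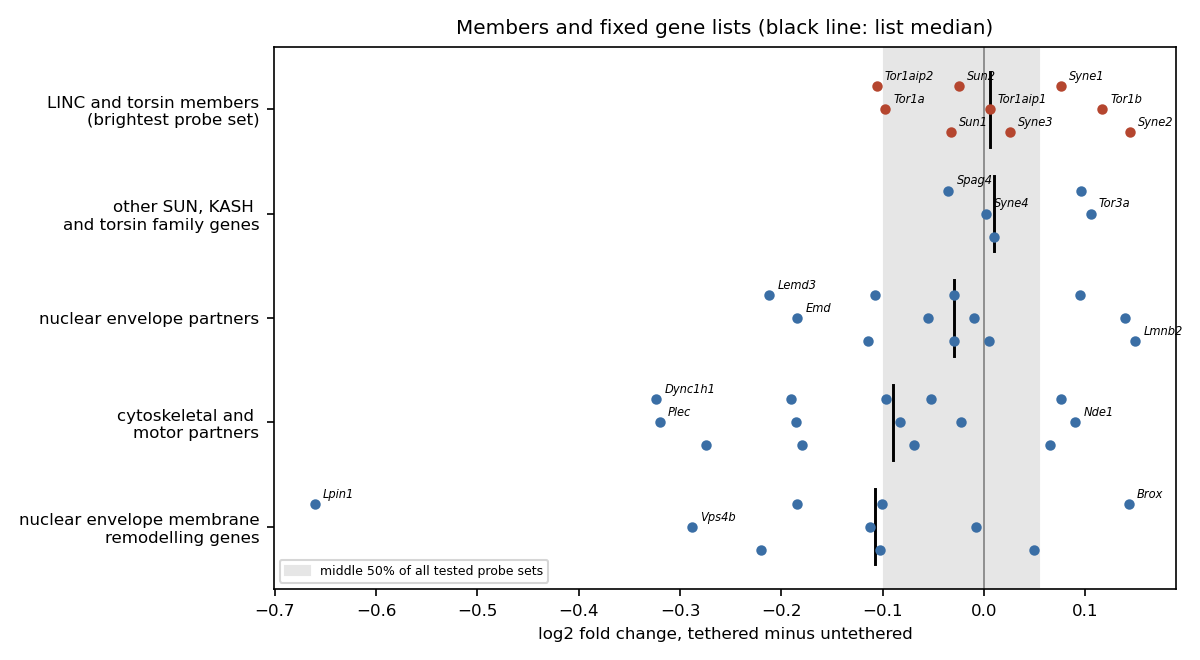
Log2 fold change, tethered minus untethered, of the brightest tested probe set of each of the 9 genes (red) and of each gene of the 4 lists (blue), with the list median as a black line. The grey band holds the middle 50% of all tested probe sets, from -0.10 to 0.05, and the 9 genes lie between -0.11 and 0.14.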

How the data were processed

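The series matrix holds 1 intensity per probe set and array on a linear scale, as deposited; the software that summarised the probes, the scaling and any background correction are not stated in the labels. Of 45101 probe sets, 64 controls were left out. Probe sets were named from the platform's annotation, and older symbols were replaced by matching gene identifiers to a RefSeq table of GRCm38.p6 (9 of 9 identifiers of the genes described were found). No build is named for the arrays, so none of that table's coordinates is given; the only coordinates are those of the printed RefSeq promoter windows, on GRCm38.p6.

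Groups came from the sample titles. Tethered was compared with untethered by limma 3.58.1 in R 4.3.3, without covariates, two-sided, with Benjamini-Hochberg adjustment over 22518 probe sets. The procedure was tested on simulated data with independent noise on each array, so variation shared by replicate number was not part of that test. No detection calls were used, and precision is limited by the number of arrays. The genes, lists, naming rule and alternatives were chosen with earlier results of these data known. All probe sets of the 9 genes are described, then up to 3 genes per list with the smallest unadjusted p. Nde1 and Ndel1, the nearest profile for each gene and the marker genes are given besides.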

Additional observations from a re-analysis of the deposited data

How the results depend on the processing

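Under 15 alternatives (2 filters, another floor, log2 of intensity plus 16, 2 scalings, a replicate block, trended moderation, each array left out, and both arrays numbered 1 left out, the last chosen after seeing the data) 0 of the member probe sets were called, and the smallest adjusted p of any of them was 0.69. Of 17 tested, 6 kept their sign in every alternative in which they were tested: Sun1 1426667_a_at, Syne2 1442285_at, Tor1b 1417819_at and 3 of Tor1aip2; the other 11 turned in at least 1. After quantile normalization the count below 0 was 5, against 8, because the values of Sun1 1426666_a_at, Sun2 1433832_at and Tor1b 1448848_at, all near 0, turned. Averaging the probe sets of each gene put 2 of 5 other SUN, KASH and torsin genes below 0 (1 with the brightest probe set), 8 of 12 envelope partners (8), 10 of 14 cytoskeletal partners (11) and 10 of 10 membrane remodelling genes (8); the cytoskeletal median was then -0.03, against -0.09, and the other 3 medians moved by under 0.01. Same-numbered arrays deviated together for numbers 1 and 3 (r = 0.71 each over probe sets) but not for number 2 (r = 0.07). Both arrays numbered 2 correlated best with an array numbered 3. Deviations were taken from the mean of 3 arrays, so those of number 2 follow from the others, and these correlations cannot settle pairing. The labels do not say that numbers mark a shared culture or day, so the numbers were not taken as pairs. With the replicate number as a block 0 probe sets were called and 1232 had an unadjusted p under 0.05, against 536 without it, 0 of them among the 17 in either fit. The smallest adjusted p of the 17 from limma with the block was 0.74. All SEs and intervals given above come from fits without the block, so they include variation shared by number.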
